A study of Xenopus laevis with 12 samples.

Results

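The comparison described here is between foregut endoderm cultured with 200 nM retinoic acid (RA) and the same tissue cultured with 25 nM RA, an intermediate and a low dose. Its members were chosen by treatment alone: the 3 libraries at 200 nM and the 3 libraries at 25 nM, 6 of the 12 in the series, over all 44478 gene IDs of the count table. The tissue was dissected from wild-type Xenopus laevis embryos (African clawed frog, stock NXR_0031) at Nieuwkoop-Faber (NF) stage 15 and held at 15 °C for 16 hours, until NF stage 25. A library was made from 8 pooled explants. The vehicle group, 0.1% DMSO with 3 libraries, was handled alike and serves only as a level, and 3 libraries at 500 nM RA entered only the filter, the scaling and the estimate of the spread. The labels do not say whether the RA media held DMSO, nor whether pools came from separate clutches, so the spread behind the p-values is that of these pools alone and may be partly technical.

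Retinoic acid is made from vitamin A by retinaldehyde dehydrogenases, acts through RAR and RXR nuclear receptors on DNA, and is broken down by CYP26 enzymes. In vertebrate embryos it sets positions along the front-to-back axis, and in the foregut it takes part in setting out the lung, pancreas and other organs. A comparison of a higher with a lower dose asks which transcripts depend on the amount of RA supplied. The tables do not pair gene IDs with gene names, and 0 of the 44478 IDs matched the RefSeq gene table of assembly v10.1. The known RA target genes and the markers of foregut endoderm or of other tissues were therefore not looked at, and the results are given for groups of IDs and for 4 single IDs.

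The 200 nM libraries held 23543242 to 29901907 counts and the 25 nM libraries 24032151 to 27961047, while the DMSO libraries held 17782601 to 24513744. At least 1 count was found for 30729 to 31017 IDs per library at 200 nM and for 29729 to 30049 at 25 nM. In all, 32 IDs, in 11 sets whose members had the same counts as each other in every library, took 15.6% of the counts of 200 nM replicate 1 and 2.88% to 9.15% of the other 5 RA libraries compared, and 0 of these IDs differed between the doses by the test used below. Which library at 200 nM stood apart depended on the measure. In a chi-square test of raw counts replicates 2 and 3 were the closest pair, at 3.16 per degree of freedom. Both pairs with replicate 1 reached 88.3, or 12.2 and 13.8 without the 32 IDs. At 25 nM the pairs also differed, at 13.5, 15.1 and 50.7, or 3.21, 4.81 and 9.08 without those IDs. Spearman correlations across IDs were alike within the 200 nM group, at 0.9912 to 0.9923, but its replicate 3 was the nearest to the other dose. The correlation of 200 nM replicate 3 with the 25 nM libraries was 0.9812 to 0.9815, against 0.9732 to 0.9744 for replicates 1 and 2. IDs are not independent replicates. The main counts of calls between the doses are given with and without 200 nM replicate 3. The classes of level, the IDs at 0 counts and most placings of DMSO are given only with it.

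Levels differed between the doses in both directions, but the large differences ran almost all one way, upward at 200 nM. Of 24454 IDs tested, 4868 (19.9%) differed between 200 and 25 nM RA in edgeR's quasi-likelihood test at a Benjamini-Hochberg adjusted p under 0.05, which is what "called" means below. Among them 2504 (10.2%) were higher and 2364 (9.67%) lower at 200 nM. With limma on log2(TPM + 1), TPM being a measure per transcript length, the split was 868 higher and 1310 lower. With libraries scaled by their upper quartile in edgeR it leaned the other way, at 2747 higher and 2143 lower. The median log2 fold change over all IDs tested was 0.001, a centre that the scaling of the libraries sets. Without 200 nM replicate 3 the calls were 2543 higher and 2441 lower, and without replicate 1 they were 1829 higher and 1727 lower.

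The direction depended on the size of the change. Below a 1.25-fold change there were 1014 higher and 1183 lower IDs, and between 1.25-fold and 1.5-fold there were 323 higher and 801 lower. From 2-fold to 4-fold there were 294 higher and 85 lower IDs. At 8-fold or more there were 390 higher and 2 lower, or 436 and 10 without 200 nM replicate 3. At 4-fold or more there were 610 higher and 6 lower, or 671 and 23 without that library. Changes of at least 2-fold were called for 995 IDs (4.07% of those tested), 904 higher (3.7%) and 91 lower (0.372%).

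**Figure D1:**
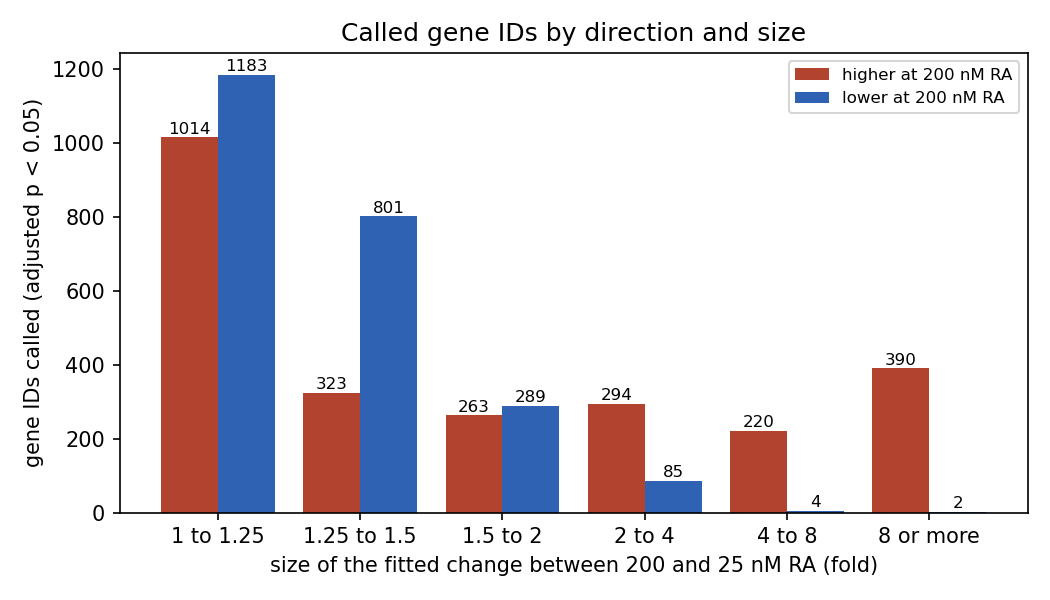
Number of gene IDs called between 200 and 25 nM RA (vertical axis) by the size of the fitted change in fold (horizontal axis), with red bars for IDs higher and blue bars for IDs lower at 200 nM. Lower IDs outnumber higher ones from 1.25-fold to 1.5-fold (323 higher, 801 lower), and from 4-fold on nearly all are higher.

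Fitted folds of IDs with 0 counts in one group depend on a prior count added by the model. With such IDs at a lower bound from 3 counts per library, the classes of at least 8-fold held 360 higher and 1 lower ID. IDs with few counts were not bounded and kept their fitted folds. Among those at least 2-fold higher, 268 had 1 to 9 counts in the 3 libraries at 25 nM together. A test of the size itself, edgeR's glmTreat against a 1.5-fold change, called 732 IDs (2.99%), 700 higher (2.86%) and 32 lower (0.131%). The lower count depended on single libraries. Without 200 nM replicate 3 it was 80, and without 200 nM replicate 1, 200 nM replicate 2, 25 nM replicate 1, 25 nM replicate 2 or 25 nM replicate 3 it was 11, 13, 20, 14 or 17. Of changes of at least 2-fold, 948 were higher and 142 lower without 200 nM replicate 3, so that 87% were higher, against 90.9% with it. Without 200 nM replicate 2 the lower IDs numbered 60.

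The IDs with large changes had low levels. The mean over the 200 and 25 nM libraries was used to sort IDs into classes of CPM (counts scaled to a common library total), which set how exactly a change can be measured. Under 1 CPM, 469 IDs had a called rise of at least 2-fold and 44 a called fall of that size, among 4264 tested. From 3 to 10 CPM the numbers were 130 and 7, among 5676 tested. At 100 CPM and above, 1 of 1396 IDs changed at least 2-fold, a fall in the class above 300 CPM, although 369 were called higher and 355 lower. The median log2 fold change of the calls from 100 to 300 CPM was 0.15 for the higher and -0.17 for the lower IDs. The median standard error of a log2 fold change was 0.484 under 1 CPM and 0.0494 from 100 to 300 CPM, so a change of under 2-fold was rarely detectable in the lowest class.

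**Figure D2:**
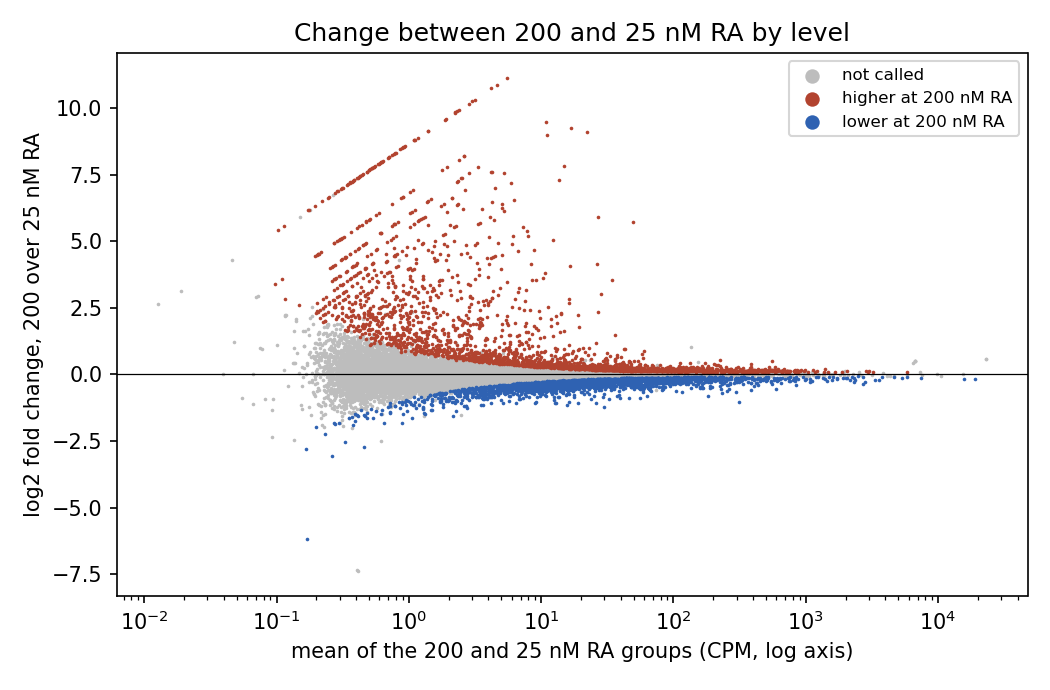
Log2 fold change of 200 over 25 nM RA (vertical axis) against the mean CPM of both groups (horizontal log axis) for each of the 24454 IDs tested, in red or blue where called higher or lower at 200 nM and in grey where not called. Large rises lie mostly below 10 CPM, and the straight lines of points at the upper left are IDs with 0 or a few counts at 25 nM.

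Measured per transcript length, the 904 IDs that were at least 2-fold higher had a median of 0.927 TPM at 200 nM and 0.107 TPM at 25 nM. The 91 IDs that were at least 2-fold lower had a median of 0.46 TPM at 200 nM and 1.18 TPM at 25 nM. Over all IDs tested the medians were 4.17 TPM at 200 nM and 4.27 TPM at 25 nM. Since the same libraries served to pick the 904 IDs, these medians are a description and carry no test. Filtering by at least 1 CPM in 3 libraries left 599 such IDs.

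Together the 904 IDs made up 0.349%, 0.398% and 0.292% of the counts in 200 nM replicates 1, 2 and 3, against 0.062%, 0.0627% and 0.0602% in 25 nM replicates 1, 2 and 3. The 91 lower IDs made up 0.0283%, 0.0322% and 0.0469% of the counts at 200 nM, against 0.0774%, 0.0778% and 0.0741% at 25 nM. The 95% Wilson interval of each share was at most 0.0025 percentage points to either side, and it covers counting error only. In both sets 200 nM replicate 3 lay nearest to the 25 nM libraries. In such bulk libraries fewer cells of a type and less RNA per cell cannot be told apart.

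Many of the rising IDs were almost absent at 25 nM. Of the 904, 78 had 0 counts in all 3 libraries at 25 nM, 268 had 1 to 9 counts in the 3 libraries together, and 558 had 10 or more. With the 78 at their bound, the median log2 fold change of the 904 was 2.56. The 268 kept their fitted folds, so 2.56 is not a bound for the whole set. The median of the 91 lower IDs was -1.24, with 1 ID at its bound. In DMSO, 632 of the 904 had at least 10 counts in each library, and 2 had 0 counts in every library. All but those 2 thus had at least 1 count in vehicle-treated tissue.

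Another condition was applied to all 44478 IDs, tested or not. It took IDs with 0 counts in every 25 nM library and at least 10 counts in every 200 nM library. It was met by 72 IDs, of which 69 were tested. All 69 were called, against 19.9% of all IDs tested, but the condition selects for the same gap between the doses. Their calls are therefore no separate support. The opposite condition, 0 counts in every 200 nM library and at least 10 in every 25 nM library, was met by 0 IDs. A count of 0 allows a level of up to 0.104 to 0.124 CPM in the 25 nM libraries and 0.113 to 0.123 CPM in the 200 nM libraries. The median of the mean counts of the 72 IDs at 200 nM was 30 counts. In DMSO, 68 of the 72 had a count in every library, 42 had at least 10 counts in each, and 1 had none.

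The 4 single IDs are the largest rises and falls among called IDs that met a rule. They had to reach a group mean of 5 CPM, and their 3 and 3 libraries must not overlap. The same libraries picked and measured them as extremes, so their folds and p-values may be overstated. Of 24454 IDs tested, 1508 higher and 2006 lower IDs met the rule. Whether called or not, 8407 of the IDs tested (34.4%) had 3 and 3 libraries that did not overlap. XBXL10_1g5816 showed the largest rise by fitted fold, which for an ID at 0 counts depends on the prior count. It had 336, 285 and 235 counts in 200 nM replicates 1, 2 and 3, against 0 counts in all 3 libraries at 25 nM. In DMSO it had 49, 35 and 66 counts, so vehicle lay between the doses and apart from both.

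Scaled to library size, XBXL10_1g5816 averaged 11.1 ± 1.87 CPM at 200 nM and 0 CPM at 25 nM (SD, n = 3 each), with an edgeR adjusted p of 0.0043. Against the limit that 3 counts per library would give, 0.115 CPM, it was at least 96.4-fold higher at 200 nM. DMSO libraries averaged 2.24 ± 0.33 CPM (SD, n = 3). XBXL10_1g30523 had the next largest rise, also by a fitted fold that depends on the prior count. It had 270, 265 and 175 counts in 200 nM replicates 1, 2 and 3, against 0 counts in all 3 libraries at 25 nM. Replicate 3 was the lowest of its group for each of these IDs.

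XBXL10_1g30523 averaged 9.25 ± 2.23 CPM at 200 nM and 0 CPM at 25 nM (SD, n = 3 each), at least 80.2-fold higher, with an edgeR adjusted p of 0.00493. Its DMSO libraries had 55, 47 and 71 counts, or 2.61 ± 0.148 CPM (SD, n = 3). Under limma-voom the adjusted p was 0.061 for XBXL10_1g5816 and 0.0633 for XBXL10_1g30523, past the threshold, while over all alternatives it ran from 7.68e-33 to 0.061 for XBXL10_1g5816 and from 2.36e-30 to 0.0633 for XBXL10_1g30523.

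XBXL10_1g13591 showed the largest fall among IDs that met the rule of 5 CPM and no overlap. It stood at 13.97, 14.6 and 24.5 CPM in 200 nM replicates 1, 2 and 3, against 40.5, 40.7 and 43.7 CPM in the 25 nM libraries. No overlap was required by the rule, and replicate 3 at 200 nM lay well above the others of its group. DMSO libraries stood at 14.1, 14.55 and 13.6 CPM, close to replicates 1 and 2 at 200 nM. Its log2 fold change was -1.23 (SE 0.183), with an edgeR adjusted p of 0.00149. Without replicate 3 it was -1.54 with an adjusted p of 6.52e-22 by the same test, and without 200 nM replicate 1 it was -1.084. With only the 6 libraries at 200 and 25 nM the edgeR adjusted p was 0.0349, the highest over all alternatives.

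XBXL10_1g7103 had the next largest fall under that rule. It stood at 7.85, 8.80 and 12.9 CPM in 200 nM replicates 1, 2 and 3, against 21.6, 20.9 and 22.4 CPM at 25 nM. DMSO libraries had 11.3, 8.95 and 9.50 CPM, within the range of the 200 nM libraries. The log2 fold change was -1.13 (SE 0.129), with an edgeR adjusted p of 8.54e-07. Without replicate 3 it was -1.38, with an adjusted p of 4.93e-15 by the same test, and without 200 nM replicate 1 it was -0.989, under 2-fold. With only the 6 libraries at 200 and 25 nM the edgeR adjusted p was 0.00153.

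**Figure D3:**
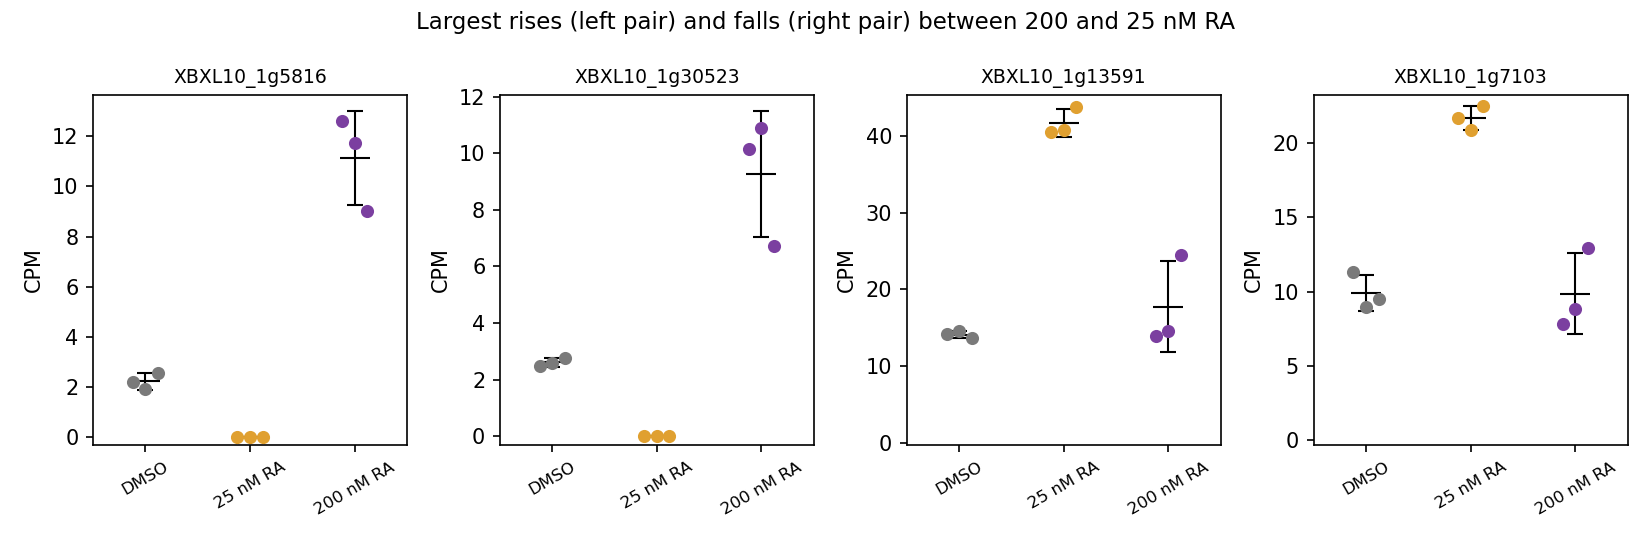
CPM (vertical axes, each starting near 0) of the 4 named IDs in DMSO, 25 nM RA and 200 nM RA, with a point for each of the 3 libraries and a bar for the mean and SD. Both rises are at 0 at 25 nM and above DMSO at 200 nM, and both falls are highest at 25 nM, with DMSO and 200 nM side by side below.

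The DMSO libraries, cultured in parallel, give a reference level for both doses. For the 904 IDs at least 2-fold higher at 200 nM, the mean of the DMSO libraries lay between the doses for 720 (79.6%), above both for 159 (17.6%) and below both for 25 (2.77%). Their median log2 fold change against DMSO was -2.10 at 25 nM and 0.67 at 200 nM. For the 91 IDs at least 2-fold lower at 200 nM, DMSO lay between the doses for 51, below both for 27 and above both for 13. Their medians against DMSO were 0.98 at 25 nM and -0.30 at 200 nM. These comparisons share libraries, so the values are set side by side and the placing of DMSO is a description with no test. Without 200 nM replicate 3 the DMSO mean lay between the doses for 82.6% of IDs at least 2-fold higher.

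**Figure D4:**
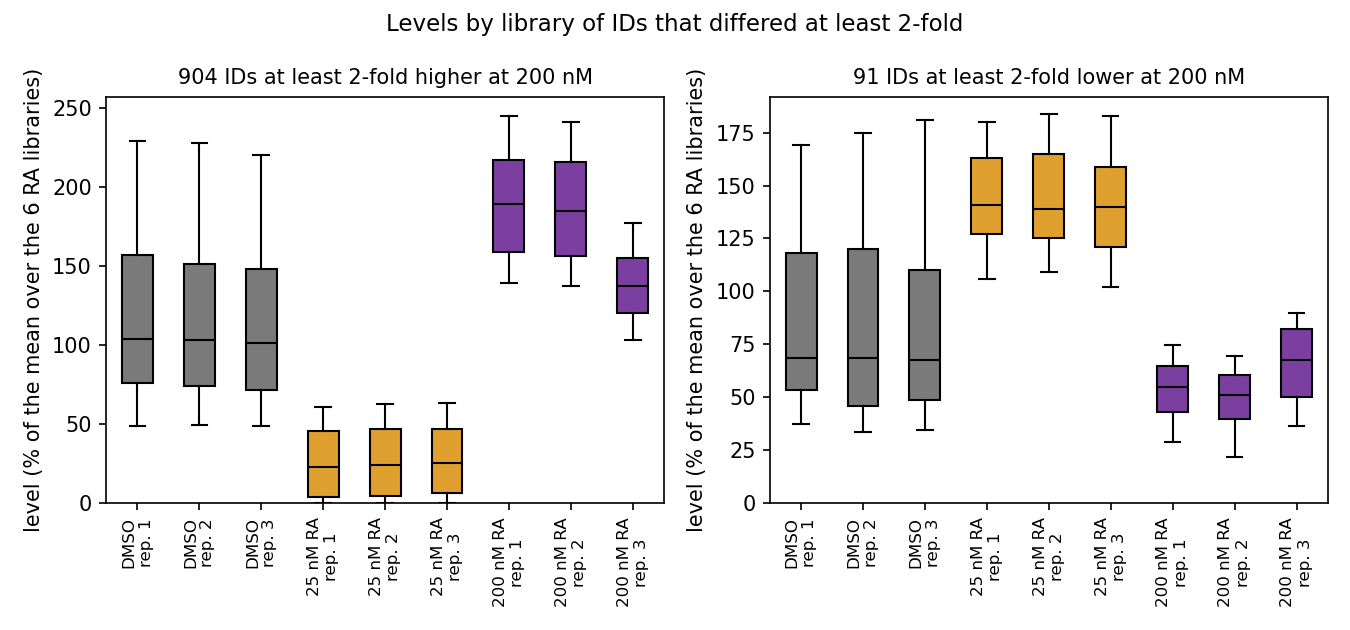
Level in each library, as a percentage of the ID's mean over the 6 RA libraries (vertical axis), of the 904 IDs at least 2-fold higher (left) and the 91 at least 2-fold lower (right) at 200 than at 25 nM RA. Boxes show the median and quartiles over IDs and whiskers the 10th and 90th percentiles; the left medians are 101% to 104% in DMSO, 22.9% to 25.5% at 25 nM and 137% to 189% at 200 nM.

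Over all called IDs, most were farther from DMSO at 25 nM than at 200 nM. The fitted log2 distance from DMSO was larger at 25 nM for 3655 of the 4868 IDs (75.1%). The called IDs were picked by the gap between the doses, which in itself bears on where DMSO falls. Their shares are a description with no test, and shares of this kind over all IDs tested are not given. The group means followed the order of the doses, DMSO then 25 then 200 nM upwards or downwards, for 573 IDs (11.8%). For 2118 IDs (43.5%) both doses lay on the same side of DMSO with 200 nM the nearer, and for 2177 (44.7%) DMSO lay between them. Among IDs lower at 200 nM the commonest place of DMSO was below both doses, with 1261 of 2364 IDs (53.3%). DMSO lay between the doses for a further 793 (33.5%), and the IDs of both these classes stood highest at 25 nM. Among IDs higher at 200 nM, DMSO was above both doses for 857 of 2504 (34.2%). The 25 nM group differed from DMSO at 9771 IDs (40%) and the 200 nM group at 6715 IDs (27.5%) in the same edgeR fit.

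**Figure D5:**
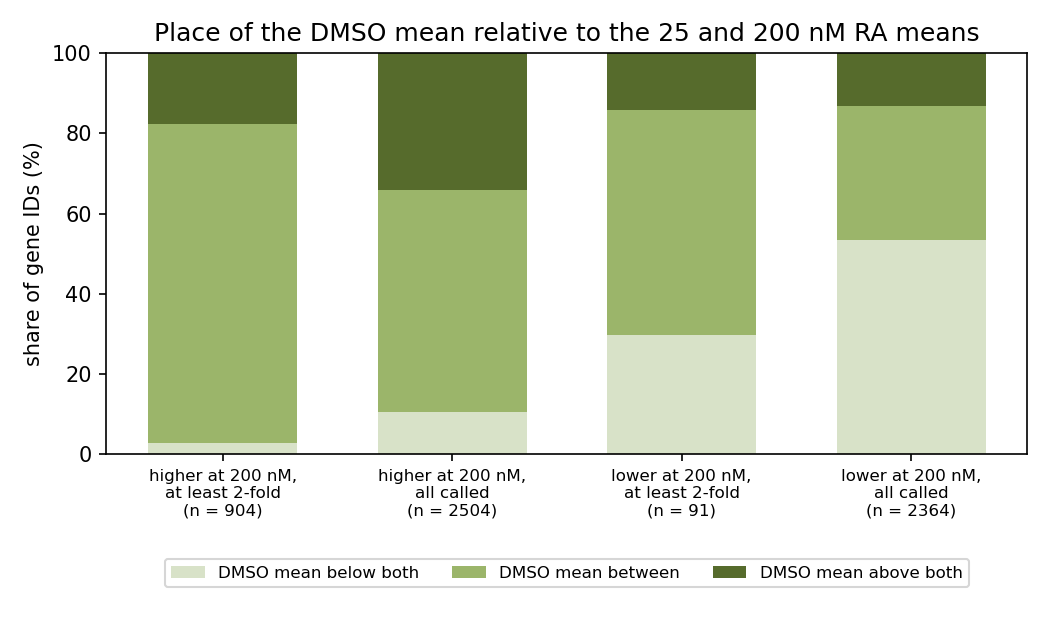
Share of gene IDs (vertical axis, percent) whose DMSO mean lay below both doses, between them or above both, for IDs called higher or lower at 200 than at 25 nM RA, with a bar for changes of at least 2-fold and a bar for all calls. DMSO lies between the doses for 79.6% of the 904 large rises and below both for 53.3% of all 2364 falls.

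The 200 nM libraries differed more among themselves than the 25 nM libraries. The biological coefficient of variation, the typical relative spread between libraries beyond counting error, was 6.85% at 200 nM and 5.6% at 25 nM, and it was 6.49% for 200 nM replicates 1 and 2 alone. To place each library without using it to choose the IDs, the comparison was fitted again without that library, and its log2 CPM was set on a scale from the 25 nM mean (0%) to the 200 nM mean (100%) of the remaining libraries. Replicate 3 at 200 nM had a median place of 83.2% (quartiles 71.9% and 91.1%) over 909 IDs at least 2-fold higher, and of 49.1% (quartiles 33.2% and 66.5%) over 135 IDs at least 2-fold lower. For replicate 1 the places were 107% and 80.0%, over 815 and 71 IDs, and for replicate 2 they were 107% and 88.8%, over 813 and 57 IDs. The 100% mark for replicates 1 and 2 included replicate 3, while that for replicate 3 did not, so these places are not on the same scale. The 25 nM libraries lay at 0% to 3.12% for higher and at 13.0% to 18.5% for lower IDs. Replicate 3 thus lay short of the 200 nM mark in both directions, by a larger share of the gap for the falls than for the rises. The IDs were picked for a gap of at least 2-fold in the remaining libraries. Such a choice can by itself place a left-out library short of its own mark, and its part here was not tested. The gap between the doses was narrower for the falls, with a median log2 fold change of -1.24 against 2.56 for the rises in the full fit. Replicates 1 and 2 also placed lower for the falls, and shifts in log2 units were not compared.

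Transcript lengths can be read from the deposited tables in relative terms. Within a library, the ratio of count to TPM of an ID is proportional to the length the authors' quantification assigned to it. For the median lengths of sets, counts and TPM were each summed over all 12 libraries first. Depth differs between libraries, so these lengths also depend on which libraries hold an ID's counts. Relative to the median of all IDs tested, the median length was 1.07 for all IDs called higher and 1.09 for all called lower. It was 1.19 (quartiles 0.699 and 1.87) for the 904 IDs at least 2-fold higher and 0.789 (quartiles 0.415 and 1.28) for the 91 at least 2-fold lower, a description with no test. An ID's assigned length can also shift between libraries when its isoforms are used in other proportions. Of 9707 IDs with at least 50 counts and 5 TPM in all libraries, limma on the log2 ratio called 0 between 200 and 25 nM, with a smallest adjusted p of 0.0825, and 371 (3.82%) had an unadjusted p under 0.05. Most of the 904 and of the 91 IDs fell below these limits, with medians of 0.107 TPM at 25 nM and 0.46 TPM at 200 nM. The length test therefore says little about those 2 sets. With single libraries left out, or only the 6 libraries fitted, 0 to 6 IDs were called, and no other tool was run.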

How the data were processed

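RNA was measured in 12 libraries from pooled explants, prepared with a stranded mRNA kit per the labels' protocols. The authors deposited a table of whole-number expected counts for each gene ID and a table of TPM for the same IDs. RSEM 1.3.0 and Bowtie2 are named per the submitters' processing notes, while the role of each tool is not given in the sources used here, nor is a build or annotation. Counts of near-identical gene copies are estimates, since RSEM divides shared reads.

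All columns were used, and 1 of 44479 rows, which names no gene and holds no counts, was left out. Counts went into edgeR 4.0.16 under R 4.3.3: filterByExpr (minimum count 10), TMM scaling (factors 0.891 to 1.06), and a robust quasi-likelihood fit to all 12 libraries in 4 groups, with Benjamini-Hochberg adjustment over 24454 IDs. No replicate pair at 200 or 25 nM was as close as sampling noise alone would make it (chi-square 3.16 to 88.3 per degree of freedom over both groups), and every library was kept as 1 replicate. Standard errors come from the fitted model. Log2 CPM used a prior count of 2. The steps were also run on simulated counts with the same spread for every ID, and the outcome is not given here. The alternatives were other scalings, filters and sample sets, left-out libraries, a replicate block, thinned counts, DESeq2 1.42.0, and limma 3.58.1 on counts (voom) or on log2(TPM + 1) and log2(TPM + 0.1). The named IDs were the 2 largest rises and the 2 largest falls under the rule given with them; its gene lists were not used, as IDs have no symbols. The members, lists and rules were chosen with earlier results of these data known.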

Additional observations from a re-analysis of the deposited data

How the results depend on the processing

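Of 20 alternatives to the count of 4868 called IDs, 17 gave a count within 1.5 times of it. The exceptions used TPM: limma on log2(TPM + 1) called 2178 IDs (868 higher and 1310 lower; at least 2-fold, 295 and 18), log2(TPM + 0.1) called 2122 (849 and 1273; at least 2-fold, 393 and 40), and log2(TPM + 1) without a filter called 2233 (1154 and 1079; at least 2-fold, 290 and 16). A pseudocount shrinks the changes of low IDs; the cause of the lower totals was not tested. At least 1 CPM in 3 libraries left 599 IDs at least 2-fold higher, with fewer IDs tested (21185). With each of the 6 libraries left out in turn, the calls ranged from 3485 to 4984 (1823 to 2543 higher, 1662 to 2441 lower), the at least 2-fold changes from 830 to 948 higher and 60 to 142 lower, the changes beyond 1.5-fold from 589 to 738 higher and 11 to 80 lower, and the IDs with shifted length from 0 to 6; with only the 6 libraries at 200 and 25 nM, 1 ID had a shifted length. DESeq2 called 2197 higher and 1954 lower. The share in the order of the doses ran from 9.74% to 12.5%. Counts thinned to the shallowest library gave 4158 calls. The falls of XBXL10_1g13591 and XBXL10_1g7103 kept direction and side of the threshold under all 20 alternatives, and the rises of XBXL10_1g5816 and XBXL10_1g30523 under 19, all but limma-voom. The alternatives for length and for the place of DMSO were chosen after seeing the data.

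With a replicate block 4839 IDs were called (2488 higher and 2351 lower), and no named ID lost its call. Deviations of same-numbered libraries at 200 and 25 nM correlated at -0.0535, 0.00023 and -0.0293, and 0 of the 3 libraries at 200 nM correlated best with its own number, so libraries were not treated as paired by number.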
